A study of Homo sapiens with 12 samples.

Results

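The comparison described here is that of K139R MSX1 with the empty vector in HEPM cells, a line of human embryonic palatal mesenchymal cells. It took 6 of the 12 RNA-seq libraries of the series, the 3 labelled K139R and the 3 labelled Vector, and all 666 genes that the deposited expression matrix lists. K139R cells had been transfected with a plasmid carrying MSX1 in which the lysine K139 is replaced by arginine, and Vector cells with the empty plasmid. Both groups were labelled with a time of 8 h, plasmid transfection and replicates 1, 2 and 3, which the study describes as biological replicates. The other libraries were wild-type MSX1 and K139Q, with 3 of each. They entered the choice of the genes tested, the estimate of the spread, an alternative normalization and the comparisons between libraries. The study gives its plasmid vector as a GFP fusion vector, so the MSX1 of these cells was overexpressed and not the protein of the endogenous gene. The labels name human cells, whereas the paper names mouse cells of the same tissue, and all the gene identifiers of the matrix are human. The library names of the K139R samples carry R157S where their titles carry K139R. The titles were followed, and expression values per gene cannot show which substitution the plasmid held.

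MSX1 is a homeobox transcription factor of the palatal mesenchyme, the tooth germ and the limb, and loss of its function is a known cause of cleft palate and missing teeth. It is known mainly as a repressor of transcription that keeps progenitor cells from differentiating. Acetylation of a lysine removes its positive charge. Arginine keeps the charge but cannot take an acetyl group, so that a lysine-to-arginine form is used as a stand-in for the protein that is never acetylated.

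The coding sequence around the substituted residue is given because the residue defines the group. The MSX1 reading frame of GENCODE release 29 has 303 codons, and the stretch from codon 129 to codon 149 lies in exon 1, on the forward strand of chromosome 4 (GRCh38, chr4:4860284-4860346). The K139 codon is in capitals.
MSX1, codons 129 to 149: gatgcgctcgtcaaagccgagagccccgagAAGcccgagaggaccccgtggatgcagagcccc
Codon 157 of the same reading frame, the residue of the library names, was AGG, an arginine codon. The sequence shown is that of the human reference and not of the plasmid.

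Expression values were recovered for 665 of the 666 genes, and the 533 genes with a group mean of at least 1 were tested. An expression value here is the authors' normalized level, whose unit neither the labels nor the paper states. The depth of the libraries is unknown, so counting error cannot be given, and n is 3 for every mean ± SD. The log2 fold change is the difference, K139R minus Vector, of group means of log2(value + 1), given with its standard error, and understates the change of genes with low values. The adjusted p comes from limma with the Benjamini-Hochberg method over the 533 genes. The list was selected by the authors on the difference of wild-type MSX1 from these same Vector libraries. Counts and directions for K139R against Vector are therefore not independent evidence, and they say nothing of genes outside the list.

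Of the 3 K139R libraries, replicate 1 stood apart from the other two. The Euclidean distance across the 533 genes on the log2 scale was 9.55 between K139R replicates 2 and 3, 13.8 between replicates 1 and 2, and 17.1 between replicates 1 and 3. Replicate 1 lay at 10.5 to 12.5 from the wild-type MSX1 libraries and at 10.1 to 11.5 from the K139Q libraries, which was nearer than either K139R library. It was 25.1 to 27.4 from the Vector libraries, against 22.2 to 24.1 for replicate 2 and 21.6 to 23.1 for replicate 3. K139R replicate 2 was also slightly nearer to K139Q replicate 1, at 9.485, than to K139R replicate 3, at 9.554. The K139R group was the least uniform of the 4, with a mean distance of 13.5 within it, against 11.3 within K139Q, 8.44 within MSX1 and 8.64 within Vector. The main counts and those of the gene lists are therefore also given without K139R replicate 1.

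**Figure D1:**
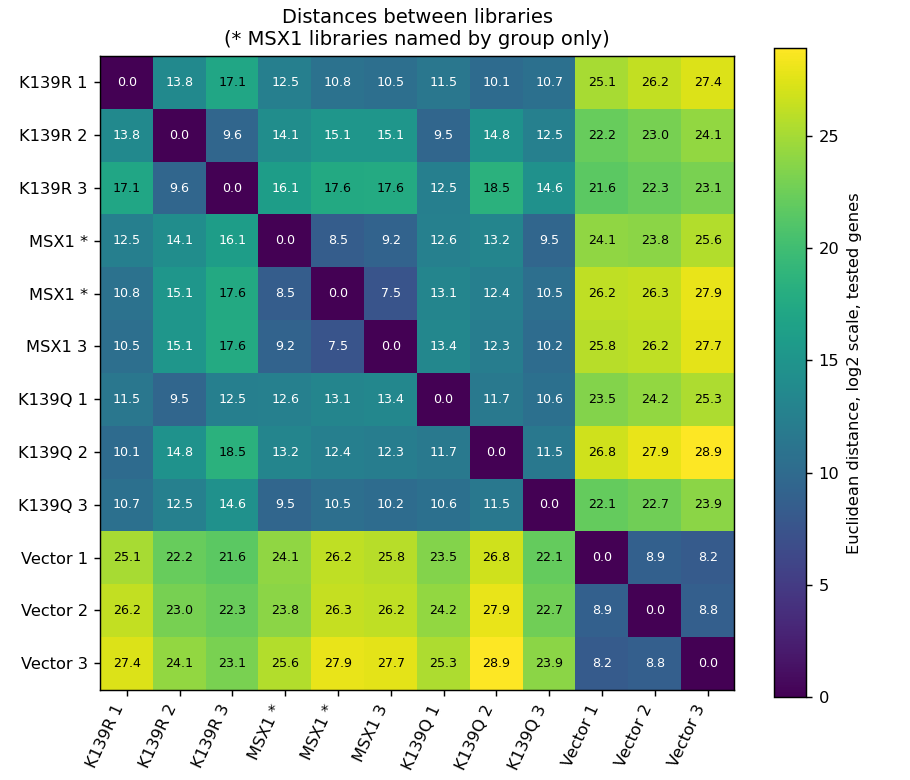
Euclidean distances between the 12 libraries over the 533 tested genes on the log2(value + 1) scale, with each cell giving one distance and both axes listing the libraries by group and replicate. K139R replicate 1 has smaller distances to the MSX1 and K139Q libraries, 10.1 to 12.5, than to K139R replicates 2 and 3, 13.8 and 17.1.

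After MSX1, the 11 largest rises without overlap included the heat shock genes HSPA1A, HSPA6 and HSPB8 and the pseudogene HSPA7, beside TCEAL7, GADD45B, EGR1 and TNC, and the few genes that were lower included 4 histone genes and the pseudogenes RRP7BP and RPL23AP49. Of the 533 genes tested, 349 passed an adjusted p of 0.05 (65.5%), with 320 higher in K139R (60.0%) and 29 lower (5.44%). The change was at least 1 on the log2 scale for 113 of them, 108 higher and 5 lower, and at least 2 for 13, 10 higher and 3 lower. The median log2 fold change over all tested genes was 0.65. All 3 K139R values lay above all 3 Vector values for 328 genes (61.5%) and below them for 30 genes (5.63%). Of the genes that passed, 305 of the higher and 21 of the lower ones had groups that did not overlap.

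Without K139R replicate 1, 298 genes passed, 269 higher and 29 lower, 103 of them with a size of at least 1 and 14 with at least 2. The 2 libraries left lay above all Vector values for 343 genes and below them for 46, a condition that is easier to meet with fewer libraries. The number of lower genes was most sensitive to Vector replicate 1, without which 14 passed as lower and 299 as higher. Quantile normalization, which gives every library one distribution over the tested genes, placed the median log2 fold change at 0.13 and called 85 genes higher and 98 lower. Giving every library one distribution takes out an excess in one direction by construction. With a linear trend with transcript GC content removed instead, 315 genes passed as higher and 18 as lower. Counts of gene lists at each of these settings are to be read beside the totals of that setting.

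The 320 genes that rose were mostly of low level, with a median K139R mean of 2.97 and a median Vector mean of 0.983, and a median log2 fold change of 0.87. A gene with a Vector mean below 1 entered the test only through another group, in which it was higher. This holds for many of the genes that rose, members of the gene lists below among them. Their counts as higher are therefore set in part by the filter. The 29 that fell had a median K139R mean of 2.39, against a median Vector mean of 5.25, and a median log2 fold change of -0.68. Among those with a GENCODE class, 295 of 319 genes that rose were protein-coding, against 18 of 26 that fell. Another 132 genes had a mean below 1 in every group and were not tested, and the K139R mean was above the Vector mean for 99 of them and below it for 32.

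**Figure D2:**
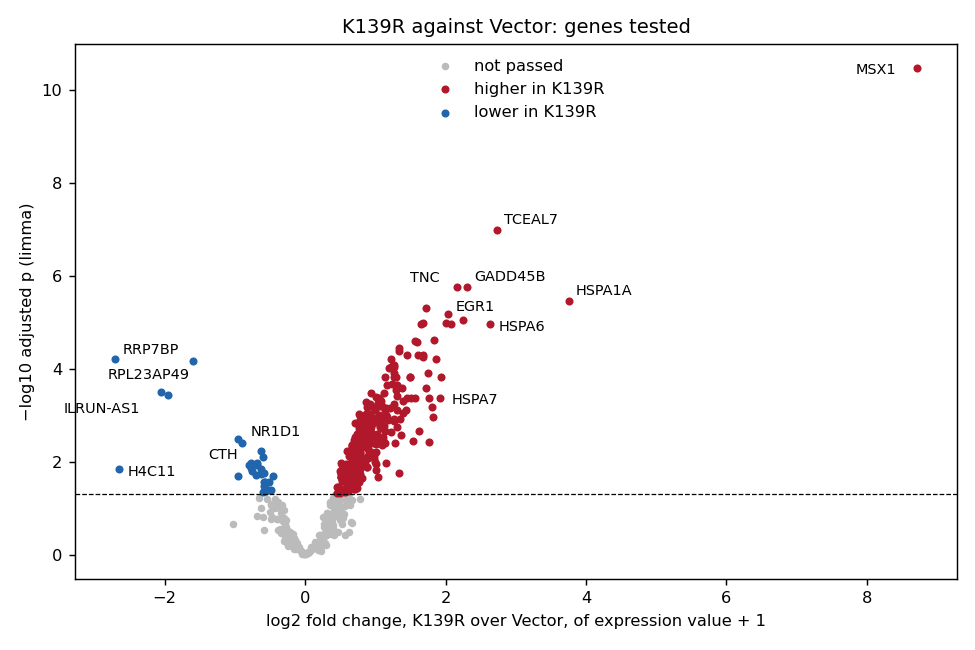
Log2 fold change of K139R over Vector (x axis, log2 of expression value + 1) against −log10 of limma's adjusted p (y axis) for the 533 tested genes, with the dashed line at an adjusted p of 0.05. The 320 genes higher in K139R lie to the right, with MSX1 at 8.72 and HSPA1A at 3.76, and the 29 lower genes to the left, down to RRP7BP at -2.71.

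MSX1 itself (ENSG00000163132) had expression values of 13561, 7211 and 5812 in K139R replicates 1, 2 and 3, against 20.3, 17.2 and 18.7 in Vector replicates 1, 2 and 3. Replicate 1 had the highest level, and no K139R value came near the Vector values. The K139R mean was 474 times the Vector mean, and the log2 fold change was 8.72 ± 0.29 (limma, adjusted p = 3.4e-11). An exact two-sided permutation test gave p = 0.1, the lowest possible with 3 libraries on each side. Transcripts of the plasmid and of the cells' own gene enter one value, so the ratio shows that MSX1 was overexpressed in all 3 libraries and not which form of it.

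All 8 heat shock and chaperone genes tested rose on the authors' scale, beside 60.0% of all tested genes, although HSP90AA1 and DNAJB1 were lower on the quantile-normalized one. Heat shock proteins hold or refold damaged proteins, and their genes are switched on together by the heat shock factor HSF1 when unfolded protein accumulates. HSPA1A, the main inducible HSP70, had values of 41.4, 17.9 and 14.6 in K139R, against 1.18, 0.510 and 0.540 in Vector. Every K139R value was more than 10 times every Vector value, with replicate 1 the highest, and the log2 fold change of 3.76 ± 0.34 was the largest after MSX1 (limma, adjusted p = 3.4e-06). HSPA6, a stress-inducible HSP70, had 679, 389 and 301 in K139R, against 74.8, 57.9 and 74.4 in Vector. Its Vector values were far above those of HSPA1A, and the reason was not tested. The groups did not overlap, replicate 1 was again the highest, and the log2 fold change was 2.63 ± 0.28 (limma, adjusted p = 1e-05). HSPA7, its near-identical pseudogene, was at 3.65, 4.0 and 4.18 in K139R and at 0.270, 0.380 and 0.250 in Vector, and reads of the pair may have been split between them. HSPA1A has a near-identical copy too, HSPA1B, with which it may share reads.

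The small heat shock protein gene HSPB8 had 34.6, 41.6 and 52.6 in K139R, against 11.3, 9.72 and 7.84 in Vector (log2 fold change 2.04 ± 0.20, limma, adjusted p = 6.7e-06). SERPINH1, which encodes the collagen chaperone HSP47, had 458, 345 and 272 in K139R, against 104, 99.5 and 91.0 in Vector (log2 fold change 1.83 ± 0.21, limma, adjusted p = 2.4e-05). Neither gene overlapped between the groups, but replicate 1 was the lowest of the K139R libraries for HSPB8 and the highest for SERPINH1. The order of the libraries also turned round between HSPB1, the gene of HSP27, with 994, 387 and 315 in K139R against 180, 156 and 173 in Vector, and HSP90AA1, the inducible HSP90, with 1092, 1694 and 2009 in K139R against 506, 445 and 508 in Vector. DNAJB1, the HSP40 co-chaperone of HSP70, was more even, with 673, 627 and 559 in K139R against 185, 195 and 195 in Vector. CRYAB, the small heat shock protein alpha-B-crystallin, was at 3.72, 4.94 and 3.47 in K139R and at 0.620, 0.310 and 1.08 in Vector. The median log2 fold change of the 8 genes was 1.76, beside 0.65 over all tested genes. All 8 also passed without K139R replicate 1, with a median of 1.79, whereas on the quantile-normalized scale 4 rose, 2 fell and SERPINH1 and HSPB1 did not pass.

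The promoters of these genes are shown because all 8 rose on the authors' scale and the binding site of HSF1 is known. It is made of repeats of GAA in alternating orientation, and the unit GAANNTTC, which reads the same on both strands, was searched in the 250 bases before each RefSeq start. It was found in all 7 heat shock and chaperone genes with an entry (CRYAB was the gene without one), in 14 of the 210 genes that rose and had an entry (6.67%), and in 7.05% of the 27305 genes of the whole table. HSPA1A had 1 match and HSPA6 had 2, in capitals below (RefSeq, GRCh38.p14, both on the forward strand, chr6:31815293-31815542 and chr1:161524290-161524539). A match is a description of letters and not a measured site. The 7 heat shock and chaperone genes are themselves among the 210, and their matches among the 14. They come from a list of known heat shock genes, so matches in all 7 are no independent evidence. The part of HSF1 in these changes was not tested.
HSPA1A, 250 bases upstream: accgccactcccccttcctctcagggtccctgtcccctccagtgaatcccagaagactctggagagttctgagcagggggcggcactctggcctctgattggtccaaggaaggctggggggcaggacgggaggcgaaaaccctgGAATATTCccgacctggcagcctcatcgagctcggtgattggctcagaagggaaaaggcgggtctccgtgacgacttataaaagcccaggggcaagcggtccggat
HSPA6, 250 bases upstream: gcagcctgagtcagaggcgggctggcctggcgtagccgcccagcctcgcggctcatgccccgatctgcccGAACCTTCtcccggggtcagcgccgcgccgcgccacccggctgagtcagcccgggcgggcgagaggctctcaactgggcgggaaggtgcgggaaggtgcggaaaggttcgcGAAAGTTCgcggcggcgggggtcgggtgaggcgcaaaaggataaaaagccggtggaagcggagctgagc
The homeodomain core TAATTG, which MSX1 is known to bind, was searched in the same way on both strands. It was found in 3 of the 210 genes that rose (1.43%) and in 1 of the 20 genes that fell and had an entry (5.00%), beside 8.16% of the genes of the table. These shares too describe letters only. The base composition of the promoters was not taken into account, and the difference between the shares was not tested.

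**Figure D3:**
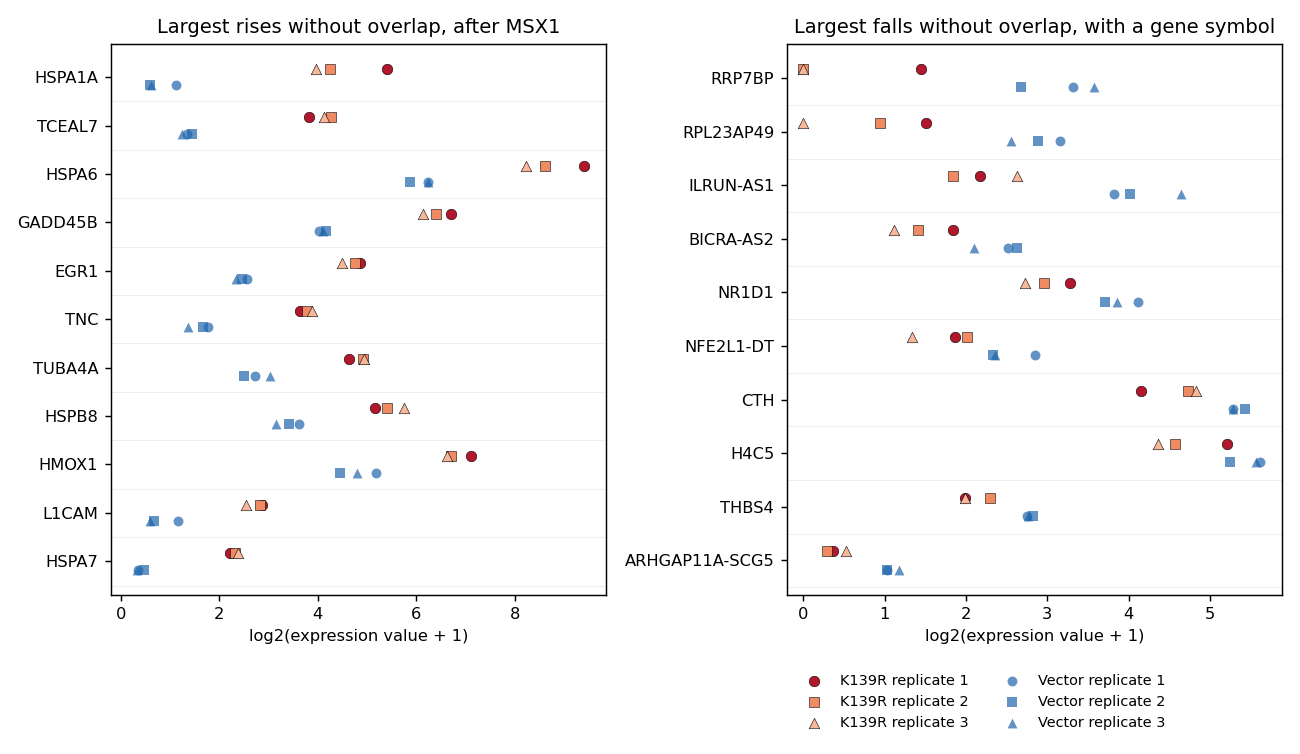
Log2(expression value + 1) (x axis) of the 11 largest rises after MSX1 and the 10 largest falls that have a gene symbol (y axis), both taken from genes that passed without overlap, with one marker per library, K139R in red shades above Vector in blue, and the marker shape giving the replicate number. The lack of overlap is set by this choice, which leaves out H4C11 (-2.65), and for HSPA1A and HSPA6 replicate 1 lies to the right of the other K139R libraries.

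Outside the chaperones, the largest rises included TCEAL7, GADD45B, EGR1, TNC and TUBA4A. TCEAL7, a member of the transcription elongation factor A-like family, had 13.1, 18.3 and 16.6 in K139R, against 1.53, 1.71 and 1.37 in Vector. It had the smallest adjusted p after MSX1 among the named genes (log2 fold change 2.73 ± 0.18, limma, adjusted p = 1e-07), and replicate 1 was the lowest K139R library. TUBA4A, an alpha-tubulin, had 24.0, 29.3 and 29.7 in K139R, against 5.60, 4.69 and 7.19 in Vector (log2 fold change 2.08 ± 0.22, limma, adjusted p = 1e-05). All 3 K139R libraries were close to each other for this gene.

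Of the 5 genes of growth arrest, oxidative stress and cell death that were tested, 3 rose, the same share as the 60.0% of all tested genes, and none fell. The same count passed without K139R replicate 1. GADD45B, which is induced by DNA damage and other stress, had 103, 84.1 and 69.7 in K139R, against 15.4, 17.1 and 16.3 in Vector (log2 fold change 2.31 ± 0.19, limma, adjusted p = 1.7e-06). HMOX1, the inducible heme oxygenase of the oxidative stress response, had 137, 104 and 97.4 in K139R, against 35.2, 20.8 and 26.8 in Vector (log2 fold change 2.0 ± 0.21, limma, adjusted p = 1e-05). Both were far above the Vector range in all 3 libraries. CDKN1C, the cell cycle inhibitor p57, was at 10.6, 10.6 and 7.71 in K139R and at 6.71, 4.94 and 4.68 in Vector, and its log2 fold change of 0.72 did not pass without K139R replicate 2 (limma, adjusted p = 0.053) or Vector replicate 3 (limma, adjusted p = 0.06). OSGIN1, an oxidative stress response gene, had 3.6, 2.26 and 1.27 in K139R and 1.57, 0.890 and 1.10 in Vector, and its groups overlapped (log2 fold change 0.58, limma, adjusted p = 0.056, and 0.042 when the replicate number was a block). It passed without K139R replicate 3 (limma, adjusted p = 0.0091) or Vector replicate 1 (limma, adjusted p = 0.049). BIK, a pro-apoptotic BCL2 family gene, was at 2.30 ± 0.49 in K139R and 1.66 ± 0.31 in Vector and did not pass (limma, adjusted p = 0.12). On the quantile-normalized scale GADD45B and HMOX1 passed as higher and CDKN1C did not.

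Of the 5 immediate early and MAP kinase feedback genes tested, 4 rose, beside 60.0% of all tested genes, and 4 did so without K139R replicate 1. They were the transcription factor genes EGR1, FOSB, JUNB and EGR3. EGR1 had 28.1, 26 and 21.5 in K139R, against 4.95, 4.53 and 4.04 in Vector (log2 fold change 2.25 ± 0.23, limma, adjusted p = 8.8e-06). FOSB had 5.55, 4.78 and 3.85 in K139R, against 1.15, 1.05 and 1.04 in Vector (log2 fold change 1.45 ± 0.18, limma, adjusted p = 4.9e-05). For both, each group was tight and the groups were well apart. JUNB was more spread, with 51.6, 27.1 and 20.2 in K139R against 14, 10.5 and 10.9 in Vector, replicate 1 being the highest (log2 fold change 1.31 ± 0.28, limma, adjusted p = 0.0018). EGR3 was at 1.26 ± 0.39 in K139R and 0.333 ± 0.18 in Vector (log2 fold change 0.76, limma, adjusted p = 0.0081). DUSP16, which dephosphorylates MAP kinases, was at 36.8 ± 6.17 in K139R and 30.3 ± 5.5 in Vector and did not pass (limma, adjusted p = 0.25). On the quantile-normalized scale EGR1 and FOSB passed as higher and JUNB and EGR3 did not.

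Of the 7 genes of Notch signaling tested, in which a receptor cleaved on contact with a neighbouring cell enters the nucleus, 6 rose, beside 60.0% of all tested genes. The change from the Vector mean was larger in K139R replicate 1 than in replicate 3 over all tested genes too, with medians of 0.78 and 0.50. The receptor gene NOTCH1 had 20, 15.1 and 9.36 in K139R, against 6.78, 6.59 and 5.03 in Vector. The Notch target HES5 had 9.10, 6.85 and 5.14 in K139R, against 3.32, 2.30 and 3.79 in Vector. LFNG, which modifies Notch receptors, had 2.24, 1.79 and 1.04 in K139R, against 0.770, 0.310 and 0.220 in Vector. In all 3 genes replicate 1 was the highest and replicate 3 the lowest of the K139R libraries, and the groups did not overlap (log2 fold changes 1.10, 0.94 and 0.90, limma, adjusted p = 0.0042, 0.0037 and 0.0022). HES7, NOTCH3 and the ligand gene DLL4 also passed, with log2 fold changes of 0.72, 0.63 and 0.63, whereas the Notch target HEY2 had a lower mean in K139R and did not pass (log2 fold change -0.34, limma, adjusted p = 0.11). Without K139R replicate 1, NOTCH3 and DLL4 no longer passed, 4 of the 7 genes rose, and the median log2 fold change was 0.54 in place of 0.72. Vector replicate 3 also left 4 of 7 when taken out. On the quantile-normalized scale none of the 7 rose and HEY2 was lower.

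All 6 tested genes of WNT signaling, a pathway of secreted ligands that stabilize beta-catenin, rose, beside 60.0% of all tested genes. NOTUM, WNT9A and WNT7B had Vector means below 1 and entered the test only through groups where they were higher, so the count is set in part by the filter. With the filter at a mean of 5, no gene of the list was tested. Fits with the replicate number as a block, or with the 6 libraries only, called 5 of the 6 and left out the receptor gene FZD10. NOTUM, a secreted enzyme that inactivates WNT proteins, had 3.27, 2.27 and 1.27 in K139R, against 0.490, 0.420 and 0.5 in Vector (log2 fold change 1.11 ± 0.26, limma, adjusted p = 0.0029). SFRP1, a secreted WNT antagonist, had 2.95, 3.11 and 4.17 in K139R, against 1.10, 0.860 and 1.72 in Vector (log2 fold change 0.99 ± 0.19, limma, adjusted p = 0.00077). NOTUM was highest in replicate 1 and SFRP1 in replicate 3, both above all Vector values. The ligand genes WNT9A and WNT7B were at 2.45 ± 0.53 and 1.11 ± 0.34 in K139R, against 0.863 ± 0.04 and 0.233 ± 0.09 in Vector (log2 fold changes 0.88 and 0.76, limma, adjusted p = 0.00067 and 0.0058). Without K139R replicate 1, or without Vector replicate 1 or 3, 4 of the 6 genes passed. On the quantile-normalized scale 1 did, WNT9A, and FZD10 had a log2 fold change of -0.09. Of TGF-beta and BMP signaling 2 genes were tested, and both rose, also without K139R replicate 1, beside 60.0% of all tested genes. GDF15, a stress-induced member of the TGF-beta superfamily, had 38.6, 16.8 and 15.3 in K139R, against 10.3, 9.89 and 5.53 in Vector (log2 fold change 1.28 ± 0.32, limma, adjusted p = 0.0039), and INHBB, an activin subunit, was at 2.66 ± 0.48 in K139R and 1.24 ± 0.19 in Vector (log2 fold change 0.70, limma, adjusted p = 0.0029). Neither passed on the quantile-normalized scale.

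Of 9 mesenchymal matrix genes tested, 7 rose and 1 fell, beside 60.0% higher and 5.44% lower over all tested genes. TNC, the matrix glycoprotein tenascin C, had 11.4, 12.7 and 13.8 in K139R, against 2.40, 2.19 and 1.59 in Vector (log2 fold change 2.16 ± 0.18, limma, adjusted p = 1.7e-06). THBS2, a secreted thrombospondin, had 3.13, 3.44 and 2.59 in K139R, against 1.15, 0.440 and 0.510 in Vector (log2 fold change 1.27 ± 0.18, limma, adjusted p = 0.00012). The collagen gene COL12A1 was at 1.79, 2.53 and 2.57 in K139R and at 0.560, 0.660 and 0.330 in Vector (log2 fold change 1.12 ± 0.18, limma, adjusted p = 0.00033). These 3 genes were not highest in replicate 1 and passed also on the quantile-normalized scale. THBS4, another thrombospondin, fell, with 2.96, 3.92 and 2.97 in K139R against 5.75, 6.06 and 5.79 in Vector, without overlap (log2 fold change -0.69 ± 0.20, limma, adjusted p = 0.011). MMP17, a membrane-anchored metalloproteinase, was at 9.20, 5.37 and 4.5 in K139R and at 2.98, 3.70 and 1.24 in Vector, and its log2 fold change of 1.03 did not pass without K139R replicate 1 (0.77, limma, adjusted p = 0.087) or without Vector replicate 3 (0.71, limma, adjusted p = 0.11). COL1A1, the main fibrillar collagen of mesenchyme, was at 8.69, 7.66 and 5.29 in K139R and at 5.14, 4.19 and 3.6 in Vector, with a log2 fold change of 0.62 (limma, adjusted p = 0.028). It did not pass without K139R replicate 1 or 2 or without Vector replicate 2 or 3 (limma, adjusted p = 0.065 to 0.1). Without K139R replicate 1, or without Vector replicate 3, 5 of the 9 genes rose. On the quantile-normalized scale 3 of the 9 rose and THBS4 fell.

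All 4 interferon and inflammatory genes tested rose, also without K139R replicate 1, beside 60.0% of all tested genes. IL11, CXCL8 and ICAM1, like members of other lists, had Vector means below 1, so they entered the test only through groups where they were higher. IL11, a cytokine of the IL-6 family, had 5.90, 2.26 and 2.65 in K139R, against 0.480, 0.630 and 0.670 in Vector (log2 fold change 1.45 ± 0.25, limma, adjusted p = 0.00043). The chemokine gene CXCL8 had 1.77, 1.82 and 2.08 in K139R, against 0.380, 0.200 and 0.150 in Vector (log2 fold change 1.22 ± 0.17, limma, adjusted p = 8.9e-05). IL11 was highest in replicate 1, whereas CXCL8 was even across the 3 libraries. The cytokine gene IL32 and the adhesion molecule gene ICAM1 were at 5.18 ± 1.32 and 1.25 ± 0.32 in K139R, against 1.79 ± 0.74 and 0.220 ± 0.10 in Vector (log2 fold changes 1.16 and 0.88, limma, adjusted p = 0.0011 and 0.0039), and neither passed on the quantile-normalized scale. Of the 10 genes that the study names as MSX1 targets the matrix held 2, and SNAI1, a repressor of epithelial genes, was the one tested. It was at 4.55, 2.76 and 2.46 in K139R and at 1.22, 0.7 and 1.04 in Vector (log2 fold change 1.08 ± 0.23, limma, adjusted p = 0.0019).

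**Figure D4:**
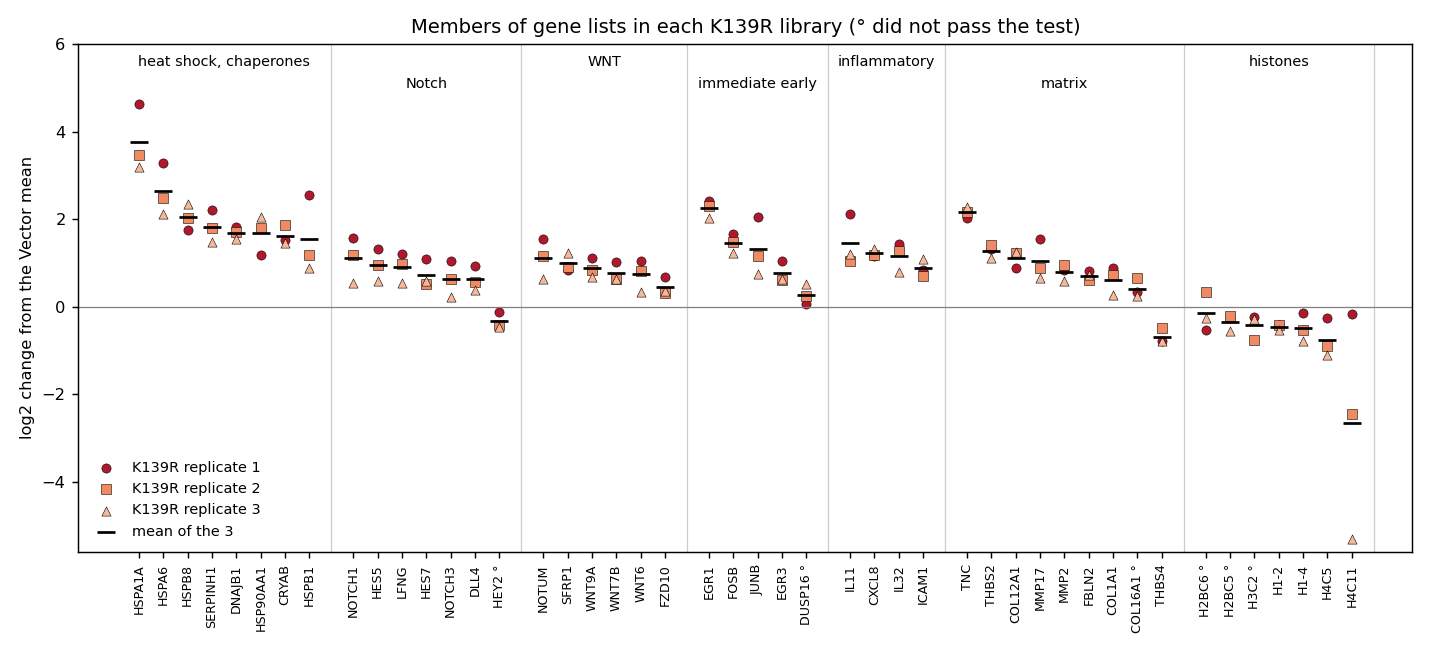
Log2 change from the Vector mean (y axis, log2 of expression value + 1) for the tested members of 7 gene lists (x axis), with one marker per K139R library and a dash at their mean. All 8 heat shock and chaperone genes lie above 0 in every library (HSP90AA1 and DNAJB1 were lower on the quantile-normalized scale), the histone genes that passed lie below 0, and H4C11 ranges widely between the 3 libraries.

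The 7 replication-dependent and linker histone genes tested had lower means in K139R, and 4 of them passed, beside 5.44% of all tested genes that were lower. Without K139R replicate 1 the count was also 4, but fits with the replicate number as a block, or with the 6 libraries only, called 2 of the 7. These genes are mainly expressed during DNA replication, and their transcripts end mostly without a poly(A) tail, whereas the libraries were made from poly(A) RNA. The linker histone gene H1-2 had 105, 104 and 96.6 in K139R, against 152, 124 and 147 in Vector (log2 fold change -0.46 ± 0.16, limma, adjusted p = 0.02). The groups did not overlap, but the test did not pass when the replicate number was a block (limma, adjusted p = 0.084) or without Vector replicate 1 or 3 (0.068 and 0.062). H4C5, one of the histone H4 genes, had 36.1, 22.8 and 19.5 in K139R, against 47.9, 36.8 and 46.3 in Vector (log2 fold change -0.76 ± 0.24, limma, adjusted p = 0.016). It did not pass without K139R replicate 2 or 3 or without Vector replicate 1 (limma, adjusted p = 0.052 to 0.063). The linker histone gene H1-4 was at 7.91, 5.77 and 4.69 in K139R and at 9.13, 7.57 and 9.88 in Vector, which overlapped (log2 fold change -0.49 ± 0.19, limma, adjusted p = 0.04, and 0.079 with the block). H1-4 did not pass without K139R replicate 2 or 3 or Vector replicate 1 or 3 (limma, adjusted p = 0.096 to 0.15). Another histone H4 gene, H4C11, had the widest spread of all, with 34.5, 6.27 and 0.00 in K139R against 57.9, 36.7 and 27.9 in Vector (log2 fold change -2.65 ± 0.84, limma, adjusted p = 0.014). Replicate 1 lay inside the Vector range for H4C11, and replicate 3 was listed at 0. Without replicate 3 the log2 fold change of H4C11 was -1.32 (limma, adjusted p = 0.035). H2BC5, H2BC6 and H3C2 did not pass, with K139R means of 41.8, 1.54 and 5.77 against Vector means of 53.5, 1.97 and 8.02. Without K139R replicate 2 or 3, or without Vector replicate 3, 2 of the 7 genes passed, and without Vector replicate 1 a single one did. On the quantile-normalized scale 6 of the 7 passed, all lower, where 98 of the 533 tested genes were lower.

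The 3 largest falls without overlap were of transcripts that encode no protein, at low levels in K139R. RRP7BP, a pseudogene of a ribosomal RNA processing factor, had 1.73, 0.00 and 0.00 in K139R, against 8.93, 5.41 and 10.9 in Vector (log2 fold change -2.71 ± 0.36, limma, adjusted p = 6.2e-05). RPL23AP49, a ribosomal protein pseudogene, had 1.84, 0.930 and 0.00 in K139R, against 7.94, 6.39 and 4.87 in Vector (log2 fold change -2.05 ± 0.33, limma, adjusted p = 0.00031). Both may share reads with their parent genes. ILRUN-AS1, an antisense transcript, had 3.52, 2.59 and 5.20 in K139R, against 13.2, 15.2 and 24.1 in Vector (log2 fold change -1.95 ± 0.32, limma, adjusted p = 0.00037). All 3 transcripts were below the Vector range in every K139R library.

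ENSG00000288061 and ENSG00000249413, which have no symbol in the matrix, had log2 fold changes of -1.60 and -0.81 (limma, adjusted p = 6.7e-05 and 0.012). The antisense transcript BICRA-AS2 had 2.58, 1.67 and 1.16 in K139R, against 4.75, 5.19 and 3.29 in Vector, and the divergent transcript NFE2L1-DT had 2.65, 3.05 and 1.52 in K139R, against 6.22, 4.06 and 4.12 in Vector. Neither overlapped, and their log2 fold changes were -0.96 and -0.78 (limma, adjusted p = 0.0033 and 0.014). NFE2L1-DT did not pass without K139R replicate 3 (limma, adjusted p = 0.057) or Vector replicate 1 (limma, adjusted p = 0.063). The read-through transcript ARHGAP11A-SCG5 was at 0.317 ± 0.11 in K139R and 1.11 ± 0.13 in Vector (log2 fold change -0.68, limma, adjusted p = 0.011). The library kit marks strand, but the sources do not say whether the counting used it, so reads of antisense and sense partners may have been mixed.

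Among protein-coding genes that fell, NR1D1, the circadian repressor REV-ERB alpha, had 8.72, 6.79 and 5.64 in K139R, against 16.4, 12.1 and 13.5 in Vector (log2 fold change -0.91 ± 0.23, limma, adjusted p = 0.004). CTH, the enzyme that makes cysteine from cystathionine, had 16.8, 25.5 and 27.4 in K139R, against 38.1, 42.0 and 38.0 in Vector (log2 fold change -0.77 ± 0.23, limma, adjusted p = 0.01). For CTH replicate 1 was the lowest K139R library, and for NR1D1 it was the highest, with no overlap for either gene.

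Markers of other cell types that the matrix held were as follows. Apart from MSX1, the palatal mesenchyme list had COL1A1 only in the matrix. Of the neuronal list 5 genes were held and 4 tested, and all 4 rose, also without K139R replicate 1, beside 60.0% of all tested genes. L1CAM, a neural cell adhesion molecule, had 6.31, 6.07 and 4.80 in K139R, against 1.25, 0.600 and 0.510 in Vector (log2 fold change 1.93 ± 0.29, limma, adjusted p = 0.00015). TUBB3, the neuronal beta-tubulin, had 63.8, 37.7 and 27.8 in K139R, against 14.1, 10.8 and 10.4 in Vector (log2 fold change 1.72 ± 0.27, limma, adjusted p = 0.00025). RBFOX3, the neuronal splicing factor NeuN, had 6.61, 17.2 and 7.83 in K139R, against 2.47, 2.37 and 2.60 in Vector (log2 fold change 1.62 ± 0.36, limma, adjusted p = 0.0022). MAP1A, a neuronal microtubule protein, was at 5.14 ± 0.39 in K139R and 1.44 ± 0.25 in Vector, and no gene of the 4 overlapped between groups. All 4 passed as higher on the quantile-normalized scale too, where 85 of the 533 tested genes did. The summed level of the 5 held neuronal genes was 45.6 to 82.7 in K139R, against 15.1 to 19.8 in Vector.

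The epithelial genes EPCAM and KRT17 had means of 3.80 ± 0.75 and 2.70 ± 0.43 in K139R, against 1.44 ± 0.36 and 1.03 ± 0.30 in Vector (log2 fold changes 0.97 and 0.87, limma, adjusted p = 0.00066 and 0.0015), with sums of 6.19 to 6.95 in K139R and 2.29 to 2.71 in Vector. Of the hematopoietic list, the macrophage marker CD68 was at 2.24 ± 1.11 in K139R and 0.473 ± 0.24 in Vector (log2 fold change 1.09, limma, adjusted p = 0.0016). On the quantile-normalized scale EPCAM, KRT17 and CD68 did not pass. The muscle gene TNNT1 had 44.8, 33.5 and 20.2 in K139R and 19.4, 35.0 and 15.5 in Vector, which overlapped (limma, adjusted p = 0.16), although it passed without K139R replicate 3 (adjusted p = 0.027) or without Vector replicate 2 (adjusted p = 0.026). No endothelial marker of the list was in the matrix. With most markers outside the matrix, the labelled cell type was not checked further, and the part of other cells in these changes was not tested. In bulk RNA, a change in the share of cells and a change per cell cannot be told apart.

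The agreement among the K139R libraries was next described gene by gene. The median SD among 3 libraries on the log2 scale was 0.31 in K139R, against 0.19 in Vector, and it was larger in K139R than in Vector for 380 of the 533 genes. The log2 levels of replicates 2 and 3 correlated across genes with Pearson's r = 0.959, those of replicates 1 and 2 with 0.922, and those of replicates 1 and 3 with 0.881. Between pairs of Vector libraries r was 0.955 to 0.966. These are correlations across genes, which are not independent replicates. The median log2 change from the Vector mean was 0.78, 0.62 and 0.50 in K139R replicates 1, 2 and 3. Of the 320 genes that rose, the highest K139R value was in replicate 1 for 187, in replicate 2 for 65 and in replicate 3 for 68, and the lowest was in replicate 3 for 174. Of the 29 genes that fell, 16 had their lowest value in replicate 3 and 16 had their highest in replicate 1.

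The difference of replicate 1 went with the GC content of the transcripts, which was known for 510 of the 533 genes. Per 10 percentage points of GC, the log2 change from the Vector mean differed by 0.50 in K139R replicate 1, 0.10 in replicate 2 and -0.06 in replicate 3. The same slope was 0.42 to 0.56 in the wild-type MSX1 libraries and 0.25 to 0.51 in the K139Q libraries, and each Vector library set against the other two had a slope from -0.04 to 0.06. HSPB1, highest in replicate 1, had a transcript of 64.3% GC, and HSP90AA1, lowest in replicate 1, one of 45.2% GC. With a linear GC trend removed from each library, the distance of replicate 1 was 11.8 on average to K139R replicates 2 and 3 and 10.4 to the wild-type MSX1 libraries, beside 15.4 and 11.3 without removal. With the trend removed, 333 genes of 510 passed. MSX1 transcripts were also most abundant in replicate 1, and the part of the MSX1 level in this difference was not tested.

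**Figure D5:**
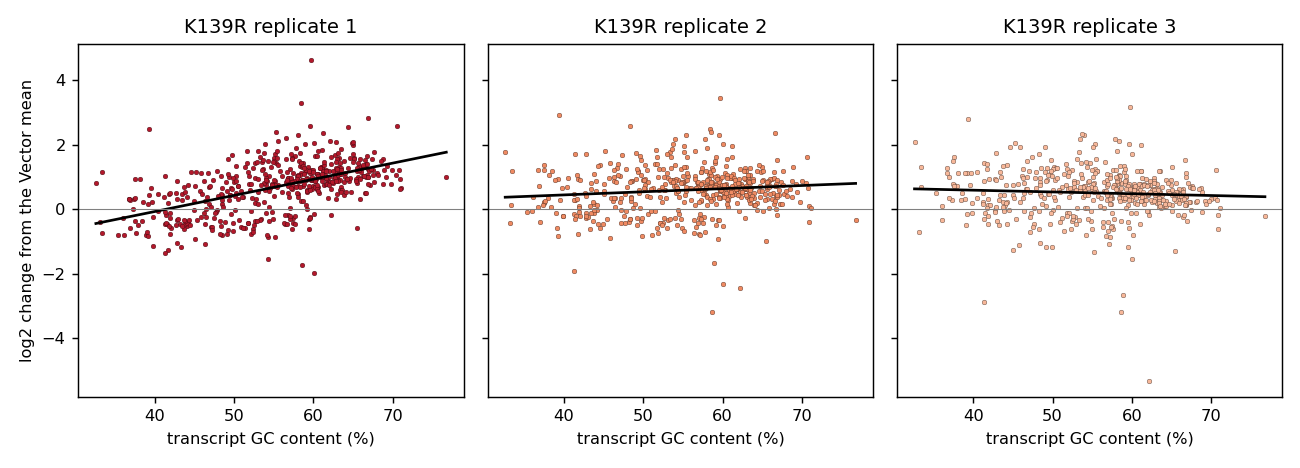
Log2 change from the Vector mean (y axis) against transcript GC content in percent (x axis) for the genes with a known transcript in each K139R library, one dot per gene, with MSX1 above the plotted dots left out and a fitted line through all 510 genes. The line rises by 0.50 per 10 points of GC in replicate 1 and by 0.10 in replicate 2, and has a slope of -0.06 in replicate 3.

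The 8 genes that differed most among the K139R libraries were all of wide range. Besides H4C11 they included NTNG2, a netrin-related adhesion molecule, with 7.03, 0.810 and 0.650 in K139R against 1.56, 1.04 and 0.240 in Vector. C1orf167 had 4.41, 0.250 and 0.230 in K139R, against 0.260, 0.05 and 0.610 in Vector. For both genes the K139R mean rested on replicate 1, the groups overlapped and the test did not pass (limma, adjusted p = 0.32 and 0.2). The pseudogene CENPBD1P went the other way, with 0.00, 3.55 and 6.96 in K139R against 2.64, 0.990 and 2.43 in Vector (limma, adjusted p = 0.77), and without replicate 1 it passed as higher (log2 fold change 1.04, limma, adjusted p = 0.014). The other 4 of the 8 had no symbol and none of them passed, although ENSG00000276101, with 14.3, 1.00 and 0.00 in K139R against 5.01, 4.24 and 7.28 in Vector, passed as lower without replicate 1 (log2 fold change -2.18, limma, adjusted p = 0.00096).

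Set directly against wild-type MSX1, K139R differed in 23 of the 533 genes (4.32%), 20 higher and 3 lower, at an adjusted p of 0.05, and in 137 at an unadjusted p of 0.05. The MSX1 libraries were those used to choose the listed genes. Of the 23 genes, 15 did not pass between K139R and Vector. DUSP16 was at 36.8 ± 6.17 in K139R, 16.3 in wild-type MSX1 and 30.3 ± 5.5 in Vector (K139R minus MSX1, log2 fold change 1.12 ± 0.20, limma, adjusted p = 0.019). DNAI4, an axonemal dynein gene, was at 6.62 ± 2.61 in K139R, 2.43 in wild-type MSX1 and 7.31 ± 1.92 in Vector (K139R minus MSX1, log2 fold change 1.11 ± 0.27, limma, adjusted p = 0.042). In both, the K139R mean lay nearer to the Vector mean than to the MSX1 mean. Both were listed for a difference between wild-type MSX1 and Vector, and named for a large one between K139R and wild-type MSX1. This position therefore follows in part from the choice of the genes. ENSG00000283515, which has no symbol in the matrix, had a log2 fold change of 1.29 (K139R minus MSX1, limma, adjusted p = 0.019).

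Among the genes that passed between K139R and Vector, 2 had a wild-type MSX1 mean on the other side of the Vector mean. TOX3, an HMG-box protein gene, had 1.84, 1.19 and 2.07 in K139R and 0.550, 0.710 and 1.23 in Vector, with a mean of 0.413 in wild-type MSX1. Its groups overlapped, and its log2 fold change of 0.56 (limma, adjusted p = 0.042) did not pass without K139R replicate 1 or 3 or Vector replicate 1 or 2 (limma, adjusted p = 0.093 to 0.15), nor with the block over K139R, K139Q and Vector (limma, adjusted p = 0.097). ENSG00000283515 had 1.18, 2.35 and 2.01 in K139R, against 0.920, 0.730 and 0.930 in Vector, with a mean of 0.143 in wild-type MSX1 (log2 fold change 0.59, limma, adjusted p = 0.034, and 0.088 with the same block). It passed when K139R replicate 1 was left out but not when any of the other 5 libraries was (limma, adjusted p = 0.062 to 0.13).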

How the data were processed

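HEPM cells, transfected with plasmids, gave 12 poly(A) RNA-seq libraries. The authors deposited a matrix of 666 genes as a score per gene and library, that is ln(expression value + 1), a natural log, scaled per gene to mean 0 and SD 1. The labels name RSEM and the paper featureCounts, and the unit, the build and the depth are not given in the sources used here. Values in steps of 0.01 were recovered from this scaling (all but RN7SL1, left out). Genes whose mean reached 1 in any of the 4 groups were tested with limma 3.58.1 (R 4.3.3) on log2(value + 1), all 12 libraries in one fit. The labels give the replicate number as a batch. Deviations of same-numbered K139R and Vector libraries correlated with r = 0.049, 0.052 and 0.145, and the fit with this block is an alternative. GC content was that of the longest GENCODE 29 transcript. On data simulated for this comparison (533 genes), the test called 88 of 100 genes of log2 size 1, 100 of 100 of size 2 and 5 of 333 unchanged ones. The simulated noise was independent between genes and had the same SD in all groups. The real K139R libraries spread more (median SD 0.31, against 0.19 in Vector), so these rates are those of simpler data. Members and lists were chosen with earlier results of these data known. Named genes were MSX1, the 12 largest rises (MSX1 among them) and falls that passed without overlap, up to 4 genes by size per list, the 8 with the largest SD among K139R libraries, those opposite to wild-type MSX1 in direction, and the 6 largest that passed against wild-type MSX1. Other list members are named where a count of their list rests on them, and were chosen after their values were seen. The alternatives were other pseudocounts (0.1 and 5), filters, quantile normalization, 6 libraries only, the block, GC removal and leaving out each library. Some results that the rule would name are not reported here.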

Additional observations from a re-analysis of the deposited data

How the results depend on the processing

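On the log2 scale, sizes depended on the pseudocount. With 0.1, 289 genes passed with a size of at least 1 and 55 with at least 2, and with 5, 28 and 4 did. A filter at a mean of 5 tested fewer genes and called 128, with 112 higher, 16 lower and 72 of size at least 1. Quantile normalization, which takes out an excess in one direction by construction, called 183, with 85 higher, 98 lower and 74 of size at least 1. The cause of the excess of higher genes on the authors' scale was not tested. GC removal left 18 lower genes. Leaving out single libraries gave 292 to 347 genes, with 14 to 31 lower. The mean distance within K139R was 20.8 with the pseudocount of 0.1 (Vector 15.3) and 9.61 with the filter at 5 (Vector 5.24), and 10.7 with GC removal (Vector 8.25). K139R replicate 1 was farther from replicates 2 and 3 than from wild-type MSX1 by 4.15, by 5.59 with the pseudocount of 0.1 and by 1.37 with GC removal, and these settings for that distance were chosen after seeing the data. Over 90 single genes, the tested list members among them, and 1307 alternatives, 89 calls were lost and 16 gained. The 4 that turned round did so with quantile normalization, with log2 fold changes of -2.24 for HSP90AA1, -0.69 for DNAJB1, -0.33 for HSPB1 and -0.092 for FZD10. List members outside the naming rule were added to this count after seeing the data. The replicate block called 336 genes with 6 libraries and 319 with 9, and changed 9 single calls, on H1-2, H1-4, OSGIN1, FZD10, TOX3 and ENSG00000283515, and no other among these genes. Depth is unknown, so values near 0 are less certain than their SD shows.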

Other observations

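RN7SL1, the RNA of the signal recognition particle and the one listed gene whose values could not be recovered, had scaled values of -0.14, -1.44 and -1.82 in K139R replicates 1, 2 and 3, against 1.46, 1.25 and 0.78 in Vector replicates 1, 2 and 3. The scale is that of SDs over the 12 libraries, the groups did not overlap, and K139R replicate 1 was the nearest to Vector. No test was made on this gene.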
